A study of Caenorhabditis elegans with 4 samples.

Results

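Isolated NURF-1 peaks were the nuclear peaks of the whole-series list that stood alone in the genome. A peak was taken as isolated when the gaps to the previous and to the next peak of its chromosome were each 10000 bp or more. The first and last peak of each chromosome were left out. By this rule 913 peaks were isolated out of 11781 nuclear peaks and 11796 peaks in all, which is 7.75% of the nuclear peaks. Another 3974 peaks had such a gap on one side, and 6894 had none. The members were thus chosen by peak positions in the whole-series list, and the gaps themselves are a description and not a finding.

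NURF-1 is the worm relative of BPTF, the largest subunit of the nucleosome remodelling factor NURF. NURF uses the energy of ATP, through an ISWI-class motor, to slide nucleosomes and so changes how open the DNA is at promoters and enhancers. Fly and vertebrate relatives of NURF-1 carry PHD fingers and a bromodomain, which bind methylated and acetylated histone tails, and in the worm nurf-1 is known for roles in vulval cell fate and in reproduction. A peak far from all others is a single called site in a long stretch without another call in the same list. Enrichment below the calling limit may still lie there.

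The study profiled NURF-1 by chromatin immunoprecipitation (ChIP) and sequencing in Caenorhabditis elegans of the wild-type strain N2, as L3 larvae of both sexes, males and hermaphrodites mixed, kept at 20 °C. There were 2 ChIP libraries made with the affinity-purified rabbit polyclonal antibody SDQ2940 and 2 input DNA libraries, all from whole larvae of this 1 condition. Both crosslinking steps used EGS, first alone for 20 minutes and then with formaldehyde for 10 minutes. The deposited peak lists comprise 1 for each ChIP replicate and 1 for the series, and whether the replicates were separate worm cultures is not stated in the labels.

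A peak in these lists has a position and a score, whose scale is not stated, and no read count, so the depth behind a peak is unknown. The replicate 1 list held 4850 nuclear peaks and the replicate 2 list 11765. Scores are compared here within a list only. No test is given for isolated against other peaks: the whole-series list fixed the members and stands for the same libraries as the replicate lists, peaks are not replicates of the experiment, and the 2 ChIP libraries form a single group. Shares carry 95% Wilson intervals, differences between shares carry intervals built from these by Newcombe's method, and both cover counting error only. Both take peaks as independent. Neighbouring peaks share a gap, so for shares of peaks that are isolated the intervals may be too narrow. Input peaks or coverage were not analysed here.

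The isolated peaks were neither the weakest nor the strongest of the list. Their whole-series scores ran from 1.52 to 345.16, with a median of 22.08 and quartiles of 8.18 and 73.44. The 10868 other nuclear peaks ran from 1.35 to 349.58, with a median of 16.70 and quartiles of 6.83 and 66.53. The lower quartile and the median were thus higher among isolated peaks, while the 90th percentile was lower, at 140.11 against 150.86. The ranges of both classes overlapped almost entirely.

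The share of peaks that were isolated was lowest at the bottom of the score range and lower at the very top than just below it. In the lowest-scored 10% of nuclear peaks, with scores up to 4.18, 4.87% were isolated (3.81 to 6.21). The share reached 9.76% (8.20 to 11.6) in the second-highest 10%, with scores from 86.34 to 149.6. In the best-scored 10% it was 6.88% (5.57 to 8.47). Among the 100 best-scored peaks 6 were isolated, and among the best 1000 there were 66.

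The higher score was not a step at 10 kb. Peaks with a neighbour closer than 500 bp had a median score of 12.92 (n = 3329), and those with a smaller gap of 500 to 1000 bp had 15.12 (n = 1808). From there the median was 19.88 for gaps of 1000 to 2500 bp, 22.38 for 2500 to 5000 bp and 22.89 for 5000 to 10000 bp, none of them isolated. Isolated peaks with a smaller gap of 10 to 15 kb had a median of 21.66 (n = 474). It was 27.94 at 15 to 20 kb (n = 210), 18.26 at 20 to 40 kb (n = 196) and 17.46 beyond 40 kb (n = 33). Against other peaks with gaps of 5000 bp or more, the median score of isolated peaks was slightly lower, with a difference of -0.81. The lowest medians thus belonged to peaks with a neighbour within 1 kb, and the medians at 1 to 10 kb lay inside the range of those of the isolated classes.

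**Figure D1:**
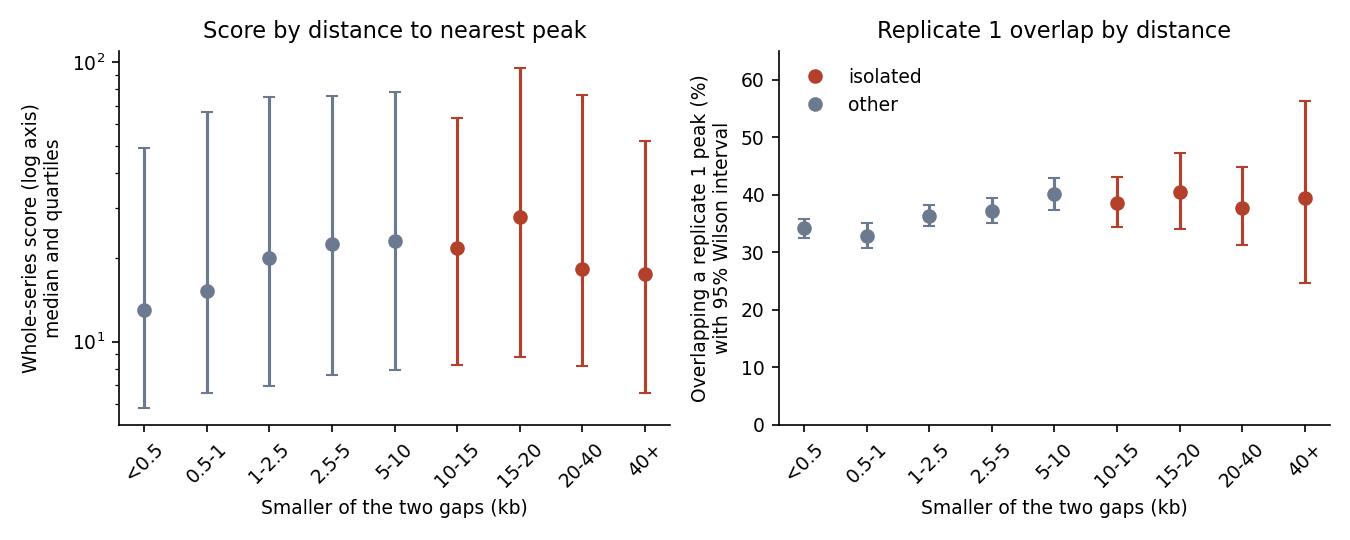
Left, the median whole-series score with its quartiles (log axis), and right, the percentage of peaks that overlap a replicate 1 peak with its 95% Wilson interval, by the smaller of a peak's gaps in kb; red points are isolated peaks and grey points the others. The median score is 12.92 below 0.5 kb and 22.89 at 5 to 10 kb, and the isolated classes lie between 17.46 and 27.94.

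Within the isolated peaks, the score showed no steady trend with distance. Spearman's rank correlation between the score and the smaller gap was -0.0022 over the 913 peaks, which share the same libraries and peak call. Wider peaks scored higher, with a rank correlation of 0.83 in isolated peaks and 0.81 in the others.

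Isolated peaks were narrower for their score. Their median width was 318 bp against 352 bp for the others, and the narrowest peak in either class was 146 bp wide. All nuclear peaks were divided by score into 5 groups of nearly equal size, and in each group the isolated peaks were the narrower ones. Their medians were 173 bp against 188 bp in the lowest group, 214 against 235, 278 against 338, 441 against 534, and 719.5 bp against 776.5 bp in the highest. Peaks of 1200 bp or more made up 2.08% of the isolated peaks, 19 in number, and 3.82% of the others. All 19 overlapped peaks of both replicate lists, and this share was not computed for other peaks of that width. Peaks of 1200 bp or more scored high, with medians of 130.43 for isolated and 147.38 for other peaks. In the highest score group 92.8% of other peaks overlapped replicate 1 and 100% overlapped replicate 2.

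Chromosomes V and X held the largest shares of isolated peaks. On V 231 of 1846 peaks were isolated (12.5%, 11.1 to 14.1) and on X 189 of 1541 (12.3%, 10.7 to 14.0). On IV 160 of 2058 were (7.77%, 6.69 to 9.01) and on II 124 of 1771 (7.00%, 5.90 to 8.29). On I 109 of 2345 were (4.65%, 3.87 to 5.58) and on III 100 of 2220 (4.50%, 3.72 to 5.45). V thus carried 25.3% of all isolated peaks and 15.7% of all nuclear peaks, and X 20.7% and 13.1%. Among the autosomes pooled, 7.07% of peaks were isolated (6.59 to 7.58), which X exceeded by 5.19 percentage points (3.57 to 6.99).

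The order of the chromosomes was broadly that of their peak density turned around. V and X had 88.2 and 87.0 nuclear peaks per Mb, II and IV 115.9 and 117.6, and I and III 155.6 and 161.1. A sparse chromosome leaves more gaps of 10 kb, and the part of density in these shares was not tested. Isolated peaks per Mb varied less, from 7.23 on I to 11.0 on V. Their gaps also differed: the smaller gap had a median of 16.3 kb on X and 15.7 kb on V, against 12.8 kb on III and 13.2 kb on I. A smaller gap of 20 kb or more was found for 32.9% of isolated peaks on V, 32.8% on X, 29.0% on II, 17.5% on IV, 14.7% on I and 11.0% on III.

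The median score was higher for isolated peaks than for other peaks on each of the 6 chromosomes, but by unlike amounts. The excess was 12.2 on X (25.85 against 13.65), 10.8 on III (28.33 against 17.54), 9.28 on II, 4.95 on I, 3.83 on IV and 1.77 on V, with a mean of 7.14 ± 4.20 (SD, n = 6 chromosomes). X thus had the lowest median among other peaks, while its isolated peaks had a higher median than isolated peaks of the autosomes pooled, at 25.85 against 21.89. Isolated peaks of II (26.74) and III (28.33) had higher medians than those of X. At the 90th percentile isolated X peaks stood lower than isolated autosomal ones, at 105.3 against 148.5. On X the median was 25.85 in isolated peaks, 16.93 in those with a gap on one side and 11.38 in those with close neighbours on both sides. On the autosomes these medians were 21.89, 20.71 and 15.91. Isolated peaks were narrower in median by 21.5 to 47.5 bp on each autosome, and on X the medians were 342 and 341.5 bp.

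**Figure D2:**
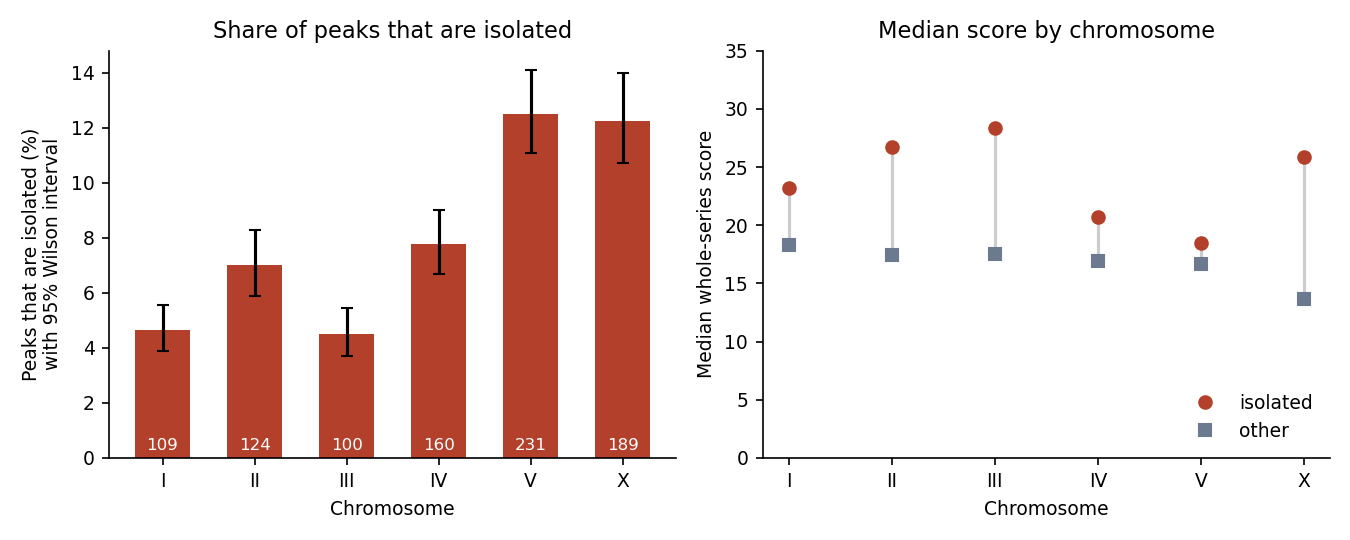
Left, the percentage of nuclear peaks that are isolated on each chromosome with its 95% Wilson interval and the number of isolated peaks in the bar; right, the median whole-series score of isolated (red circles) and other peaks (grey squares). V and X stand highest on the left with 12.5% and 12.3%, and on the right the red point lies above the grey one on all 6 chromosomes.

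Isolated peaks lay in the middle part of their chromosome less often than other peaks. Worm autosomes have a gene-dense centre between arms richer in repeats and in histone H3 lysine 9 methylation. With each chromosome divided into 3 equal parts, the middle part held 280 isolated peaks (30.7%, 27.8 to 33.7) and 36.0% of the others, beside 35.6% of all nuclear peaks. The difference was -5.32 percentage points (-8.36 to -2.12), and it was below 0 on all 6 chromosomes. It was -12.6 on II, -12.3 on I, -6.05 on V, -3.36 on IV, -0.90 on X and -0.63 on III. Peaks per Mb in the middle and outer parts were 130.6 and 108.6 on II, 170.4 and 148.2 on I, and 106.8 and 78.9 on V. They were 119.0 and 117.0 on IV, 82.1 and 89.4 on X, and 162.4 and 160.4 on III. The part of peak density in these differences was not tested. The share in the middle part was lower at longer gaps. Of members with a smaller gap of 10 to 15 kb 33.1% were there (29.0 to 37.5), of those at 15 to 20 kb 32.4% (26.4 to 39.0), 25.5% of those at 20 to 40 kb (19.9 to 32.0) and 5 of the 33 beyond 40 kb (15.2%, 6.65 to 30.9).

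Seen the other way, 6.68% of peaks in middle parts were isolated (5.96 to 7.48) and 8.34% of those in outer parts (7.74 to 8.98). The widest contrast was on II, where 10.2% of peaks in the left part and 4.81% in the middle part were isolated. The left part of II had 90.1 peaks per Mb and its middle part 130.6. On X the shares were 13.2%, 12.0% and 11.7% from left to right, with overlapping intervals. Isolated peaks of middle parts had a median score of 26.30, and those of outer parts 20.29. The genes beside these peaks were not analysed here.

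**Figure D3:**
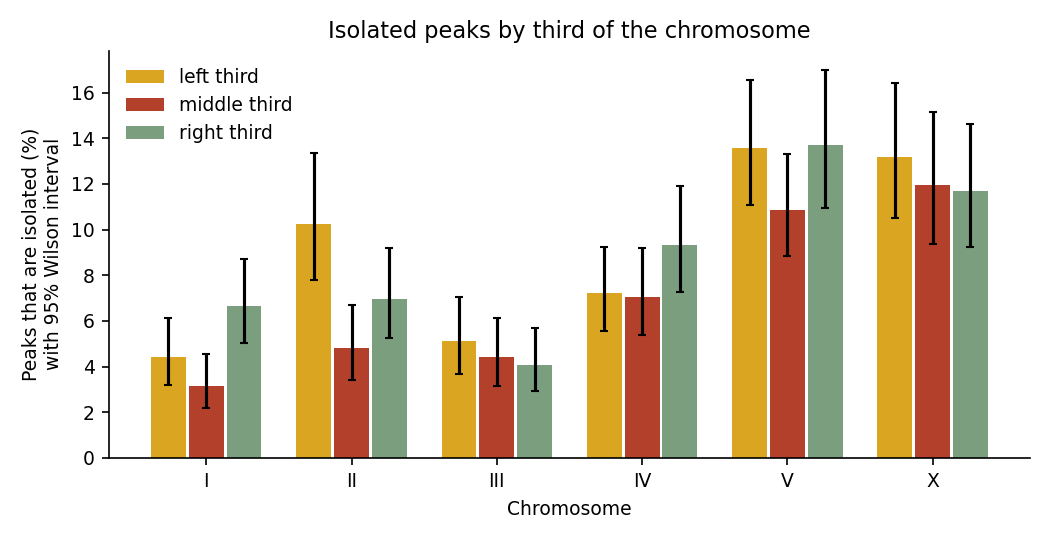
Percentage of nuclear peaks that are isolated in the left, middle and right part of each chromosome, each of equal length, with 95% Wilson intervals. The middle bar is the lowest on I, II, IV and V, at 3.15%, 4.81%, 7.06% and 10.9%, and on each of them its interval overlaps that of at least 1 other part.

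Most isolated peaks were also called in replicate 2, and the smaller part of them in replicate 1. With at least 1 bp shared, 871 of the 913 overlapped a replicate 2 peak (95.4%, 93.8 to 96.6), beside 94.5% of all nuclear peaks. Replicate 1 peaks were overlapped by 355 (38.9%, 35.8 to 42.1), beside 36.0% of all. Peaks of both replicates were overlapped by 343 (37.6%, 34.5 to 40.8), beside 34.3% of all. The remaining members divided into 528 with replicate 2 alone, 12 with replicate 1 alone and 30 with neither (3.29%, 2.31 to 4.65), beside 3.84% of all. Each share was thus close to that of the whole list. Isolated peaks exceeded the others by 3.16 percentage points in replicate 1 (-0.08 to 6.49) and by 0.93 in replicate 2 (-0.68 to 2.19), and both intervals include 0. For overlap with both replicates the difference was 3.50 points (0.29 to 6.80), an interval above 0 that covers counting error only. This difference was not computed within groups of like score. It rests on 343 of the 355 members with a replicate 1 peak, and the replicate 1 difference at like score was 0.01 points. The whole-series list stands for the same libraries, so these shares are not an independent check of the members.

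The difference in replicate 1 was near 0 at like score. With the 5 score groups weighted as in isolated peaks, the difference in replicate 1 was 0.01 percentage points, and in replicate 2 it was -0.31. In the best-scored group 92.9% of isolated peaks (88.4 to 95.7) and 92.8% of the others overlapped replicate 1. In the next group 58.0% and 57.0% did, then 21.0% and 19.2%. In the lower groups the shares were 2.78% (1.19 to 6.34) and 6.71%, and 5.84% and 4.89% in the lowest. In replicate 2 all isolated and all other peaks of the best-scored 2 groups were found, and 75.2% and 78.7% of the lowest group.

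**Figure D4:**
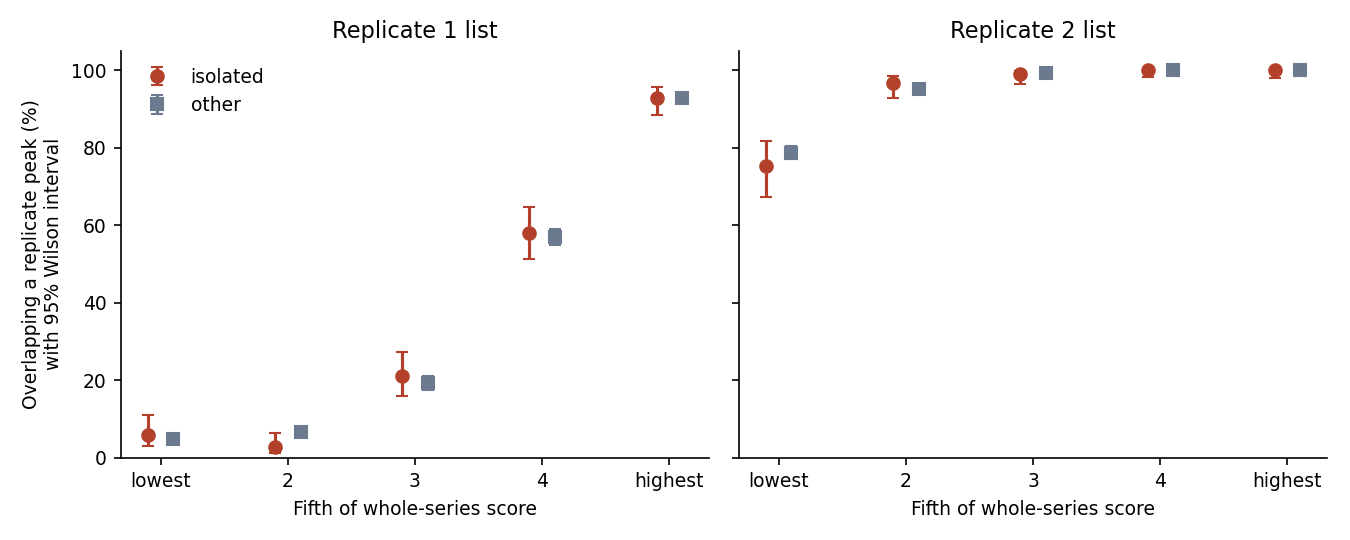
Percentage of isolated (red circles) and other (grey squares) nuclear peaks that overlap a peak of replicate 1 (left) and replicate 2 (right), within 5 equal groups of whole-series score from the lowest to the highest, with 95% Wilson intervals. For replicate 1 the classes stand at 92.9% and 92.8% in the highest group and at 5.84% and 4.89% in the lowest, and they lie furthest apart in ratio in the second-lowest, at 2.78% and 6.71%.

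Members found in both replicates were the strong and wide ones. Their median score was 90.07 and their median width 630 bp, against 11.46 and 245 bp for those with replicate 2 alone, 5.24 and 225 bp for those with replicate 1 alone and 3.93 and 155.5 bp for those with neither. In the replicate 1 list, peaks at isolated members had a median score of 12.22, the same as peaks at other whole-series peaks. In the replicate 2 list the medians were 24.18 and 19.41. Replicate peaks at isolated members were narrower in both lists, with medians of 262 against 280 bp in replicate 1 and 336 against 382 bp in replicate 2. Across the 343 members in both replicates, Spearman's rank correlation between the replicates' scores was 0.64, as a description over peaks that share a peak caller and genome. It was 0.66 over the 3703 other peaks in both replicates.

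Among isolated peaks in both replicates, the scores were less closely related on X than on the autosomes pooled. Spearman's rank correlation was 0.42 over 60 members on X and 0.68 over 283 on the autosomes. It was not computed for single autosomes or for other X peaks. The 90th percentile of the whole-series score was 105.3 in isolated X peaks and 148.5 in isolated autosomal ones. The part of this range in the correlation was not tested. In the best-scored group, 23 of 30 isolated X peaks overlapped replicate 1 (76.7%, 59.1 to 88.2), and 159 of 166 autosomal ones (95.8%, 91.6 to 97.9). Other peaks of that group gave 84.1% on X and 93.5% on the autosomes. X thus had the lower share in both classes.

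**Figure D5:**
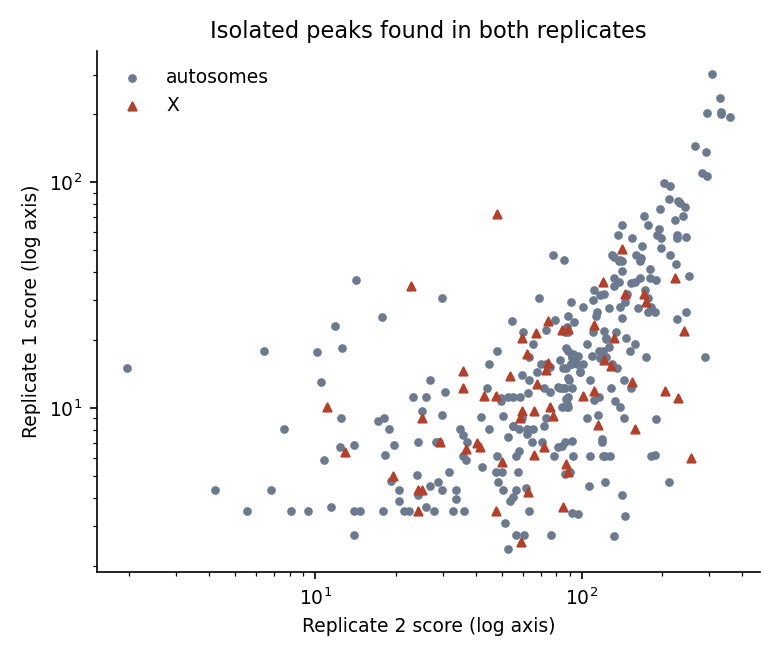
Replicate 1 score against replicate 2 score (log axes) of the 343 isolated peaks that overlap peaks of both replicates, autosomal peaks as grey circles and X peaks as red triangles. Scores rise together, with a rank correlation of 0.68 on the autosomes and 0.42 on X, and the X peak with the highest replicate 2 score, 256.83, has a replicate 1 score of 5.99.

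Few replicate peaks lay in the empty flanks of the members, which follows in part from the rule. These flanks were chosen as empty in the whole-series list, which stands for the same libraries. The counts are thus not an independent check of isolation. Of the 871 members with a replicate 2 peak, 784 had no other replicate 2 peak within 10 kb. Of the 355 with a replicate 1 peak, 342 had no other replicate 1 peak there, in a list with fewer peaks to act as neighbours. A further 40 members in replicate 2 and 535 in replicate 1 had neither an overlapping peak nor a neighbour, so that no replicate peak was there to be isolated. Together these make 824 members without a replicate 2 neighbour (90.3%, 88.2 to 92.0) and 877 without a replicate 1 neighbour (96.1%, 94.6 to 97.1). Counting neighbours in all 3 lists, 789 members had none (86.4%), with a median score of 23.24. Of these members 297 also overlapped both replicates. The 88 replicate 2 peaks in the flanks of the other members were weak, with a median score of 4.39 against 16.76 for the list. The exception was a peak at III, 8020635 to 8021318, with a score of 201.85, which overlapped a neighbouring peak of the whole-series list and reached into the 10 kb. The 51 replicate 1 peaks in such flanks had a median score of 3.51 and none exceeded 9.27. Only 2 of the 88 and 1 of the 51 overlapped any peak of the whole-series list.

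The same rule applied to the replicate lists gave 902 isolated peaks in replicate 2 (7.67%) and 1303 in replicate 1 (26.9%). In replicate 2, 779 of the 902 overlapped a member, and the median score was 19.72 for isolated and 16.34 for other peaks, higher on 5 of 6 chromosomes. In replicate 1, the medians were 10.30 and 10.08, and isolated peaks were higher on 4 of 6. Of the replicate 1 peaks that were isolated in their own list, 325 (24.9%) overlapped a member and 921 (70.7%) overlapped a whole-series peak with closer neighbours. Isolated peaks were narrower in either list, at 310 against 354 bp in replicate 2 and 261 against 271 bp in replicate 1.

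The peak before or after was itself isolated for 507 members (55.5%), and 107 had isolated peaks on both sides. This follows in part from the rule, since each neighbour of a member already has 1 gap of 10 kb or more. The longest runs held 7 isolated peaks in a row, at V, 3841494 to 4042175 and at X, 3159380 to 3412306, regions chosen after their values were seen. Gaps beside isolated peaks summed to 38.4 Mb, 38.3% of the length between chromosome ends, while the peaks themselves held 0.39 Mb, 7.17% of the bases in nuclear peaks. A gap of 10 kb or more was found 2900 times between neighbouring nuclear peaks, and 1519 of these gaps had an isolated peak at an end.

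The 10 best-scored isolated peaks ranked from 3 to 164 in the whole list. On the WS220 build, the best lay at II, 649877 to 650912 (1036 bp), with a score of 345.16. Its replicate scores were 195.38 and 358.81 in replicates 1 and 2, and its gaps were 16124 and 39694 bp. Next came V, 7775454 to 7776815, with a score of 334.25 (replicate scores 201.22 and 332.86). A further 4 of the 10 best lay on V, and 3 of the 10, the first included, on II. All 10 overlapped both replicates.

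On V they were 12727666 to 12728872 (score 323.59), 15001740 to 15003057 (321.50), 15511402 to 15512409 (312.60) and 11375009 to 11375884 (280.71). The best on I was 5485351 to 5486408 (311.95). Those on II were 254995 to 256058 (292.40) and 8184719 to 8185498 (290.75), and that on IV was 4809891 to 4811065 (280.28). The best on III, 2768414 to 2769076, scored 224.88 and ranked 433, so that III, which held the fewest isolated peaks, also had the weakest leader. Among the 10, the peak at V, 11375009 stood apart: its replicate 2 score was 290.44 and its replicate 1 score 16.78, where each of the other 9 had 106.54 or more.

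The best isolated peak on X, 16445565 to 16446317, showed a wider gap between replicates. It scored 249.44 in the whole-series list and 256.83 in replicate 2, at the 97.6th percentile of that list. In replicate 1 its overlapping peak was 168 bp wide and scored 5.99, at the 29.9th percentile. It also had long empty flanks of 41911 and 37446 bp.

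Strong members without any replicate 1 peak were few. Of the 73 members whose replicate 2 peak was in the best-scored 10% of that list, 69 overlapped replicate 1 (94.5%, 86.7 to 97.8), against 95.3% of the other peaks. The 4 that did not, named after their values were seen, lay at V, 9191429 to 9191806 (replicate 2 score 240.12), V, 15262135 to 15262553 (176.70), IV, 8301868 to 8302320 (161.06) and V, 15800995 to 15801306 (157.21). They were 312 to 453 bp wide.

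The 3 widest isolated peaks scored above the isolated median of 22.08. They scored below the median of the 19 isolated peaks of 1200 bp or more, which was 130.43. The 3 were X, 15807547 to 15811188 (3642 bp, score 83.84), X, 291972 to 295288 (3317 bp, 49.02) and IV, 2828667 to 2830624 (1958 bp, 41.78). The first was one broad peak of 3654 bp in replicate 1, with a score of 72.50, and its best replicate 2 peak spanned 592 bp and scored 47.86. The second was broad in both lists, at 3315 and 3126 bp. The IV peak was too, at 1844 and 1793 bp.

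The 3 most remote peaks scored below the isolated median of 22.08. The 33 isolated peaks with a smaller gap beyond 40 kb had a median of 17.46, against 17.27 for all nuclear peaks. The largest smaller gap belonged to V, 17737829 to 17738009 (181 bp, score 2.63), with 78742 bp and 94286 bp of empty sequence on its sides and an overlap with replicate 1 alone. It was followed by IV, 16294329 to 16294512 (184 bp, 12.92) and II, 12519799 to 12520060 (262 bp, 5.79), each with replicate 2 alone. All 3 lay in the right part of their chromosome, at 81.9 to 93.1% of its length.

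The best-scored members in neither replicate list were V, 2434930 to 2435084 (10.06), V, 3053945 to 3054092 (6.78) and I, 11763382 to 11763529 (6.36), all of 148 to 155 bp, near the narrowest width in the list. The members just inside the gap limit were III, 13141574 to 13141726 (smaller gap 10003 bp, score 4.70), I, 12664846 to 12665255 (10010 bp, 120.56) and V, 13152688 to 13152921 (10011 bp, 11.24). Just outside lay X, 13261898 to 13262118 (9970 bp, 12.92), III, 7872833 to 7873185 (9954 bp, 11.24) and V, 5329690 to 5330155 (9953 bp, 34.58). Scores on the 2 sides of the limit thus overlapped.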

How the data were processed

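Peaks of 2 NURF-1 ChIP libraries from L3 larvae were analysed. The submitters' processing notes name BWA and the build ce10; peaks carry the source MACS, and the build WormBase WS220 is named per the file headers. Each peak has a deposited score whose scale is not stated. The sources used here do not state how the authors combined the replicates, nor the MACS version and thresholds. Gaps, widths and overlaps (1 bp or more) were computed from first and last bases with pandas 2.3.3, SciPy 1.17.1 and NumPy 2.4.6 under Python 3.11.15; chromosome length was the last base of the last peak, the same in all 3 lists. Figures used matplotlib 3.10.9. The 12 first and last peaks have no smaller gap and are in no gap class. The rule and the overlap count were tested on simulated lists. The members, comparisons and naming rule were chosen with earlier results of these data known. The rule names the 10 best-scored members, the best of each chromosome, the 3 widest, the 3 most remote, the 3 best in neither replicate list, and the 3 nearest the limit on each side. Other regions are said to have been named later. The gene table at hand is on WBcel235, so no gene names are given.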

Additional observations from a re-analysis of the deposited data

How the results depend on the processing

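Of 63 alternatives over 9 results, 48 stayed within the reported value's interval, or within 1.5 times for the count. For medians that interval was 1 SD over the 6 chromosomes. A set of 8 was chosen after seeing the data. With 5 kb there were 2135 isolated peaks and with 20 kb 229. With 20 kb the excess in median score was 1.05 and the difference in median width -53 bp. The difference in the middle part was -0.66 percentage points with 5 kb and -11.8 with 20 kb. The excess of X over the autosomes was 8.57 points with 5 kb and 2.39 with 20 kb, and the share of members without a replicate 2 neighbour, whether or not a replicate 2 peak overlapped them, was 94.2% and 87.3%. Against other peaks with gaps of 5 kb or more, the score difference turned to -0.81. At like score the width difference was -52.3 bp. Leaving out a replicate gave 902 and 1303 isolated peaks, score differences of 0.22 to 3.38 and width differences of -44 to -10 bp. For overlap with both replicates, the alternatives were the single-replicate differences already given, 0.93 and 3.16 points. There the members were still fixed by the whole-series list, so these alternatives, counted among the 48, are not a separate check. In place of replicate 2, the replicate 1 list gave 96.1% of members without a neighbour, most of which it did not call at all. The cause of these shifts was not tested, beyond the limit's own effect on the count. No paired analysis was possible because no test compares groups, and no input values were analysed here. Depth is unknown, so a member without a replicate peak may have been missed.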
